A study of Mus musculus with 3 samples.

Results

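The 84 genes for the proteins of the cytosolic ribosome were followed across 3 single-cell libraries of mouse lung, out of 27998 genes in the deposited matrices. Members were the genes whose symbol starts with Rpl or Rps followed by a digit, together with Rplp0, Rplp1, Rplp2 and Rpsa. Kinases and binding proteins with similar symbols (the Rps6k genes, Rps19bp1), the paralogs Rps27l and Rpl22l1, and symbols that contain -ps were left out. By name, 32 members belong to the small (40S) and 52 to the large (60S) subunit, and all 84 identifiers were found in the gene annotation of build mm10. Fau and Gnb2l1, which also encode ribosomal proteins, lie outside this rule and are given with the companion genes.

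The groups were 1 library each, all from the lungs of C57BL/6 females aged 10 to 12 weeks: a non-irradiated control (NI), conventional-mode thoracic irradiation (CONV) and FLASH-mode thoracic irradiation, in which the same dose arrives at an ultra-high dose rate. Both irradiated groups received 17 Gy of 4.5 MeV electrons under isoflurane. How many mice each library pooled, and when after irradiation the lungs were taken, is not given in the sources used here. With 1 library per group no test across animals exists, no p-value is given, and every interval below is a 95% interval for counting error only, which leaves out differences between animals, dissociations and loadings.

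After filtering, 1705 NI, 2388 CONV and 2253 FLASH cells remained, with 6856269, 7112157 and 5194555 UMIs (unique molecular identifiers, each marking 1 captured RNA molecule) and medians of 2951, 2351 and 1794 UMIs per cell. NI cells were thus the deepest. Pairs of libraries shared 5 to 7 cell barcodes. Cells fell into 28 clusters, of which 25 could be named from markers, and 12 named classes held at least 30 cells in every library. Names rest on markers only, so each class is read as "like" its type. The effector and innate-like T cluster held 176 NI cells among its 277. Its leading gene was Itm2a, which is not among the markers of that name, so the class may be mixed. The general capillary cluster had Plvap, Ptprb and Gpihbp1 of its own markers among its leading genes. Vwf and Lyve1, listed for arterial and lymphatic endothelium, were there too, so this class may also hold other vessel cells. The clusters of thymocyte-like (132 cells) and cycling (224 cells) cells came almost wholly from NI (355 of their 356 cells), and unnamed clusters held 2.05% of NI, 8.63% of CONV and 8.66% of FLASH cells.

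Ribosomal proteins are made from some of the most abundant mRNAs of any cell, since each ribosome needs close to equal numbers of nearly all of them. Their mRNAs begin with a C followed by a run of pyrimidines, the terminal oligopyrimidine (TOP) motif, through which the kinase mTOR and the RNA-binding protein LARP1 control their translation and stability together. Surplus Rpl5 and Rpl11, bound to 5S ribosomal RNA, can hold Mdm2 and so stabilise p53, which ties ribosome assembly to the DNA damage response. In lung, resting lymphocytes are small cells with little other mRNA, while secretory cells fill their mRNA pool with surfactant or secretoglobin messages.

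The start sites of members that the results below turn on are shown because the TOP motif lies there. Each line is the 30 bases around the RefSeq start (15 on each side, GRCm38.p6, 5′ to 3′ on the gene's strand), and capitals mark the longest run of C and T near the start where it reaches 5 bases.
Rps27, chr3:90213634-90213663, minus strand: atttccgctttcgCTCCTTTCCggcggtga
Rps27rt, chr9:114982725-114982754, minus strand: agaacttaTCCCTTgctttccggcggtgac
Rplp2, chr7:141447636-141447665, plus strand: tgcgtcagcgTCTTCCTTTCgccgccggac
Rpl38, chr11:114668565-114668594, plus strand: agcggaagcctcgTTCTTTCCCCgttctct
Rps10, chr17:27635230-27635259, minus strand: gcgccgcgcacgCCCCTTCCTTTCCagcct
Rpl12, chr2:32961697-32961726, plus strand: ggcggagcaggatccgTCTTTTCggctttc
Rpl10, chrX:74270801-74270830, plus strand: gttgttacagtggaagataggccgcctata
The runs were 9 bases in Rps27, 10 in Rplp2 and Rpl38, 13 in Rps10, 7 in Rpl12 and 6 in Rps27rt, and Rpl10 had none of 5 bases in its window.

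A promoter window of 300 bases (250 before to 50 after the start) was held for 63 members. A run of at least 8 pyrimidines within 20 bases of the start occurred in 28 of the 63 (44.4%), against 18.5% of 17999 genes. CCGGAAG, the core bound by ETS factors, occurred on either strand in 25 (39.7% against 12.5%). AAGATGGC, the core bound by YY1, occurred in 6 (9.52% against 3.51%), and TATAAA, the TATA box, in 6 (9.52% against 14.3%). These are matches of letters in a window and do not show that a factor binds there.

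Members were near the top of the expression order in lung. They made up 27 of the 50, 63 of the 100 and 79 of the 200 most abundant genes by mean level, and 74 of 84 were above 1000 CPM, a gene's UMIs scaled by the total UMIs of the same cells. Because 3′ counting records 1 UMI per molecule whatever its length, CPM were not divided by gene length. The median level was 2538 CPM for small-subunit and 2102 CPM for large-subunit members. Small-subunit members took 9.38% of all UMIs in NI, 8.11% in CONV and 8.01% in FLASH, and large-subunit members 11.5%, 10.1% and 9.94%. The genes were spread over 19 chromosomes, with 14 on chromosome 7, 8 on 17, and 7 each on 9 and 11.

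The highest mean level was that of Rps27 (chr3:90212522-90213651), a small-subunit protein with a zinc finger, at 7359 CPM in NI, 5998 in CONV and 6149 in FLASH. Rpl41, a very short basic peptide of the large subunit, followed at 6789, 5582 and 5637 CPM. Rps29, a zinc-binding small-subunit protein, was at 6109, 5677 and 5811 CPM. Rps19, which is mutated in Diamond-Blackfan anaemia, differed less between libraries, at 5100, 5200 and 4967 CPM, and Rpl37a of the large subunit was at 4588, 4135 and 4145 CPM. These levels over all cells mix the cell classes, whose numbers differ between libraries.

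At the low end stood the paralogs. Rpl10l, the testis copy of Rpl10, had no UMI in any library, which allows up to 0.438 CPM in NI, 0.422 in CONV and 0.578 in FLASH (3 counts). Rpl39l, the testis copy of Rpl39, had 5 UMIs in NI and 1 in each irradiated library. Rpl3l, which takes the place of Rpl3 in muscle, had 40 UMIs in NI, 64 in CONV and 58 in FLASH. Rpl7l1, a factor of ribosome assembly related to Rpl7, was at 57.0, 50.5 and 42.0 CPM, and Rpl6l, annotated as a processed pseudogene, at 571, 412 and 445 CPM. The 80 members above this group of 4 (all but Rpl10l, Rpl39l, Rpl3l and Rpl7l1) had at least 20 UMIs in every class and library and carried the comparisons below.

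The ribosomal protein share, the members' summed UMIs over all UMIs, separated the cell classes more than 5-fold within every library. It was highest in T-like cells, at 43.7% in NI, 46.5% in CONV and 46.2% in FLASH, and next in B-like cells, at 32.6%, 36.2% and 35.7%. Effector and innate-like T cells (29.0%, 30.4% and 29.6%) and NK-like cells (28.6%, 30.5% and 29.8%) followed. The lymphoid classes thus held the first 4 places in all 3 libraries.

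Myeloid classes came next. Type 2 dendritic-like cells stood at 22.1%, 25.04% and 23.8%. Non-classical monocytes crawl along the inner vessel wall, and cells like them were at 19.9%, 22.7% and 22.2%. Alveolar macrophage-like cells, the resident phagocytes of the airspace, were lower at 14.6%, 14.5% and 13.6%. General capillary-like endothelium was at 11.2%, 17.0% and 15.6%, and smooth muscle and myofibroblast-like cells at 12.97%, 15.4% and 14.5%. Alveolar type 2 (AT2)-like cells, which make surfactant, were at 11.3%, 14.3% and 13.7%, and alveolar fibroblast-like cells at 10.2%, 12.1% and 11.4%. Club-like cells of the airway, which secrete Scgb1a1, were lowest at 8.14%, 8.79% and 8.46%.

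T-like over club-like shares gave a range of 5.36-fold in NI, 5.29-fold in CONV and 5.46-fold in FLASH. 7 of the 12 classes held the same rank in all libraries, and the others that changed places lay between neighbours, apart from general capillary-like cells (rank 10 in NI, rank 7 in both irradiated libraries) and alveolar macrophage-like cells (ranks 7, 9 and 10). The intervals are narrow, such as 20.82 to 20.89% for all NI cells, because each sum holds many UMIs. A share cannot tell more ribosomal protein mRNA from less of the other mRNA in the same cells.

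**Figure D1:**
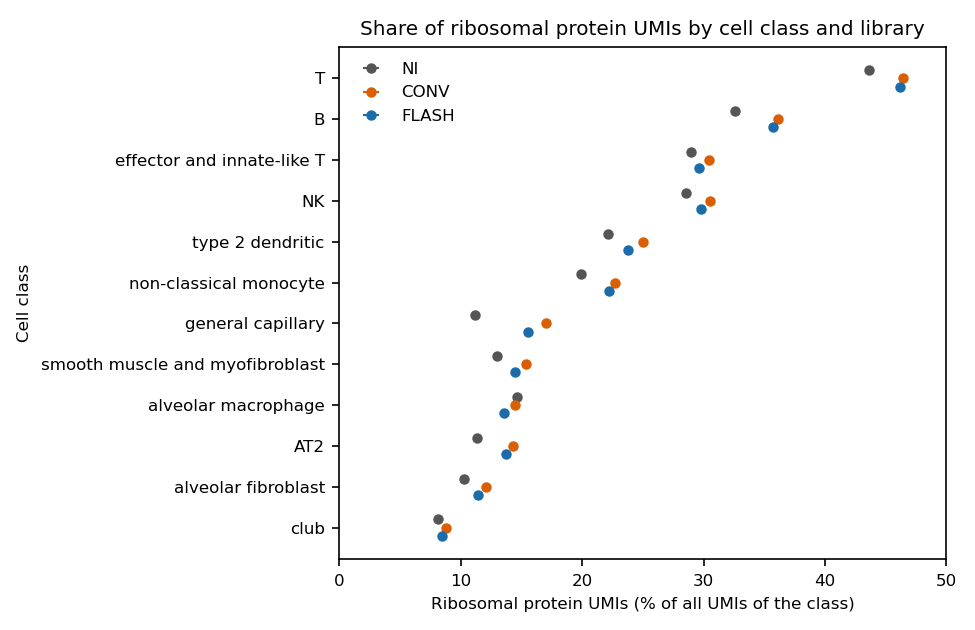
Ribosomal protein UMIs as a percentage of all UMIs (x axis) in each of 12 cell classes (y axis), for NI, CONV and FLASH (1 library each); bars are 95% counting intervals, mostly smaller than the points. T-like cells lie at 43.7 to 46.5% and club-like cells at 8.14 to 8.79%, and NI is the leftmost point in all classes but the alveolar macrophage-like one.

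Over all cells, the share was 20.9% in NI, 18.2% in CONV and 17.9% in FLASH, so the pooled order put NI highest. Within classes the order was the opposite for most. In NI, B-like, NK-like and effector and innate-like T cells were a larger part of the kept cells. T-like cells, with the highest share, were a smaller part. They were 156 of 1705 cells in NI, 307 of 2388 in CONV and 275 of 2253 in FLASH. The thymocyte-like and cycling clusters, at 26.3% and 26.0%, were nearly all NI. Without these clusters the shares over all cells were 19.1%, 18.2% and 17.9%. For this reason the libraries were compared class by class.

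Within classes, the ribosomal protein share was higher in CONV than in NI in 11 of 12 classes. The mean log2 ratio over the 12 classes was 0.19 (0.187 to 0.197), a ratio of 1.14, and ratios ran from -0.01 to 0.61. General capillary-like cells had the largest ratio (log2 0.61, 17.0% against 11.2%). Whether the mix of vessel cells in this class differed between libraries was not tested. AT2-like cells followed at 0.34, alveolar fibroblast-like and smooth muscle and myofibroblast-like cells at 0.24 each, and non-classical monocyte-like cells at 0.19. The lymphoid classes differed less, from 0.07 in effector and innate-like T cells to 0.15 in B-like cells. In alveolar macrophage-like cells the log2 ratio was -0.01 with an interval of -0.03 to 0.004, so no difference was detectable there beyond counting error.

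FLASH against NI gave the same 11 classes higher, with a mean log2 ratio of 0.13 (0.127 to 0.138), a ratio of 1.10. General capillary-like cells again had the largest value (0.48), followed by AT2-like cells (0.28). In alveolar macrophage-like cells the share was lower than in NI, at -0.11 (-0.13 to -0.09). The CONV and FLASH comparisons share the NI library, so a feature of that library enters both.

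FLASH was lower than CONV in all 12 classes, by little: the mean log2 ratio was -0.06 (-0.065 to -0.054), a ratio of 0.960. Values ran from -0.13 in general capillary-like cells to -0.01 in T-like cells. The largest differences beside the capillary class were in alveolar macrophage-like (-0.09), alveolar fibroblast-like (-0.09) and smooth muscle and myofibroblast-like cells (-0.08). Whether 2 libraries of the same group would differ by as much was not tested.

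**Figure D2:**
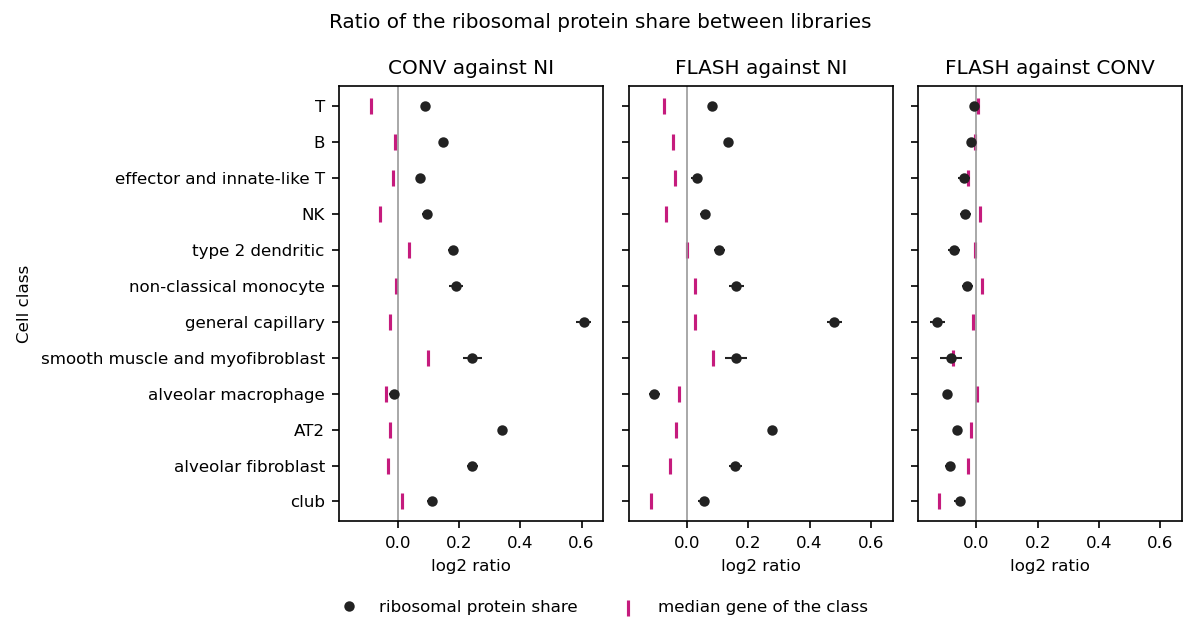
Log2 ratio of the ribosomal protein share (x axis; black points with 95% counting intervals) in 12 cell classes (y axis) for 3 pairs of libraries; pink ticks give the median log2 ratio of all genes with at least 100 UMIs in that class. General capillary-like cells reach 0.61 in CONV and 0.48 in FLASH against NI, and all FLASH against CONV points lie below 0.

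Sequencing depth differed between libraries, and NI was the deepest in all 12 classes. Median UMIs per cell in AT2-like cells were 6466 in NI, 3865 in CONV and 3192 in FLASH, and in T-like cells 2436, 1787 and 1442. In general capillary-like cells, with the largest ratio of CONV to NI, NI and CONV were close, at 2026 and 1923, with FLASH at 1342. Effector and innate-like T cells, with a small ratio (log2 0.07), were also close, at 2197 in NI and 2148 in CONV. Alveolar macrophage-like cells, with no detectable CONV difference, had 3356 in NI and 2143 in CONV. The part of depth in the ratios was not tested. Among cells of 1000 to 4000 UMIs only, where 8 classes kept enough cells, the mean log2 ratios were 0.24 for CONV and 0.19 for FLASH against NI, and -0.05 for FLASH against CONV. Splitting each class at its own median depth gave capillary-like shares of 7.52% in NI, 13.9% in CONV and 13.5% in FLASH for the shallower cells, and 12.9%, 18.7% and 16.6% for the deeper ones.

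That split turned the order against NI in 3 classes. Deeper NK-like cells were at 32.9% in NI against 31.8% in CONV and 32.2% in FLASH, and deeper effector and innate-like T cells at 32.0% against 28.5% and 29.8%. Shallower club-like cells were at 12.7% in NI against 8.70% and 8.10%. The order of FLASH and CONV turned in the deeper cells of the same NK-like and effector T classes, and in deeper smooth muscle and myofibroblast-like cells (15.5% in FLASH, 14.8% in CONV). The share of mitochondrially encoded UMIs, a sign of cell quality, was highest in NI in all compared classes but the club-like one. Club-like cells were at 2.87% in NI and 2.95% in CONV. General capillary-like cells were at 3.28% in NI against 2.88% and 2.94%, and smooth muscle and myofibroblast-like cells at 4.86% against 4.05% and 3.85%. With these UMIs left out of the total, the mean log2 ratios were 0.19 and 0.13.

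Other genes of each class were used as a second scale. Relative to the median gene of a class, the mean log2 ratios of the share were 0.20 for CONV against NI, 0.16 for FLASH against NI and -0.04 for FLASH against CONV. On this scale the alveolar macrophage-like value against NI was 0.02 in CONV and -0.08 in FLASH. In club-like cells, where the median gene was itself lower in FLASH (-0.12 against NI and against CONV), the FLASH against CONV value turned to 0.07.

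Single members were compared by their CPM within a class, and a level at least 25% higher or 20% lower was counted (the fold), for members with at least 100 UMIs in the pair of libraries. Of 958 member and class pairs, 308 were higher in CONV than in NI (32.2%, against 17.5% of all gene and class pairs tested) and 12 were lower (1.253%, against 20.1%). Among other genes with at least 1000 UMIs in the pair, members left out, 11.2% were higher and 23.0% lower. The median log2 ratio of members was 0.22, against -0.02 for all genes.

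By class, 75 of 80 members passed the fold upward in general capillary-like cells (31.0% of all genes tested there) and 54 in AT2-like cells (17.2%). Alveolar fibroblast-like cells had 29 of 80 (14.9%), T-like cells 13 (11.2%) and alveolar macrophage-like cells 2 (13.5%). The difference in general capillary-like and AT2-like cells was therefore shared by nearly all or most members. That in T-like cells stayed mostly under the fold.

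In FLASH against NI, 230 of 955 pairs were higher (24.1%, against 15.3%) and 24 lower (2.51%, against 21.4%), with a median log2 ratio of 0.16 against -0.04 for all genes. General capillary-like cells had 64 of 80 higher (30.4% of all genes) and AT2-like cells 41 (14.4%). In FLASH against CONV, 2 of 956 pairs were higher (0.209%, against 8.42%) and 35 lower (3.66%, against 10.6%), with a median of -0.06 against -0.02. Among other genes with at least 1000 UMIs, members left out, 4.28% were higher and 2.97% lower, so the members' share lower was near that background. Of the 35 lower pairs, 9 were in general capillary-like cells (12.3% of all genes there), and 7 each in smooth muscle and myofibroblast-like (13.6%) and type 2 dendritic-like cells (13.8%).

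**Figure D3:**
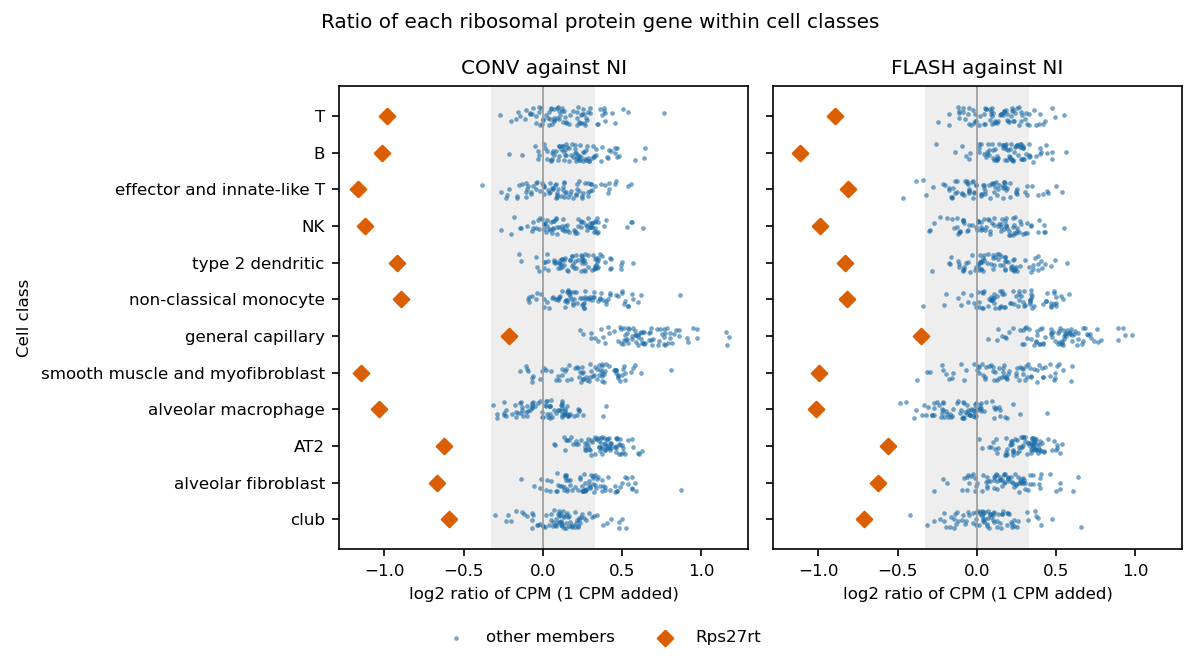
Log2 ratio of CPM (x axis, 1 CPM added) of each tested member in 12 cell classes (y axis), CONV and FLASH against NI; the grey band spans 20% lower to 25% higher and diamonds mark Rps27rt. Most members of general capillary-like and AT2-like cells lie right of the band in both panels, and Rps27rt lies left of the other members in every class.

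Rps12, a small-subunit protein, stood out most often, past the fold upward in 10 of 12 classes in CONV and 9 in FLASH. In T-like cells it was at 1832 CPM in NI, 3113 in CONV and 2688 in FLASH, a ratio to NI of 1.70 (1.56 to 1.85) in CONV and 1.47 (1.34 to 1.61) in FLASH. In AT2-like cells it was at 764, 1183 and 1103 CPM, and in B-like cells at 1689, 2530 and 2495 CPM. NI was the lowest of the 3 libraries each time, and FLASH lay between NI and CONV. Of the 98-base windows (the read length) near the 3′ end of Rps12, 95.4% occur unchanged in other genes, most often the left-out copy Rps12-ps3. The copy's own row gave 535, 517 and 539 CPM in NI, CONV and FLASH with all cells summed, and its part in the Rps12 values was not tested.

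Rpl30, a large-subunit protein, passed the fold upward in 10 classes in CONV and 8 in FLASH. It was also the highest-ranked member in alveolar macrophage-like cells, by the interval bound nearest to 1, at 737 CPM in NI, 975 in CONV and 1002 in FLASH, with ratios of 1.32 (1.11 to 1.58) and 1.36 (1.14 to 1.63). Its direction there was thus opposite to that of the summed share in FLASH.

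Rps10 and Rps20, which lie near the mRNA entry of the 40S subunit and are ubiquitylated when ribosomes collide, were also often past the fold. Rps10 was at 488 CPM in NI, 895 in CONV and 691 in FLASH in alveolar fibroblast-like cells, a CONV ratio of 1.83 (1.51 to 2.24). In general capillary-like cells Rps10 was at 569, 1269 and 843 CPM, and FLASH against CONV was 0.664 (0.522 to 0.844). Rps20 was past the fold upward in 10 classes in CONV and 6 in FLASH. In effector and innate-like T cells it was at 2422 CPM in NI, 3229 in CONV and 2341 in FLASH, so that FLASH was close to NI and below CONV (0.725, 0.604 to 0.867).

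Rpl12, which anchors the ribosomal stalk, passed the fold upward in 9 classes in CONV and in 6 of 11 in FLASH. It was at 1568 CPM in NI, 2453 in CONV and 1922 in FLASH in B-like cells, with a CONV ratio of 1.56 (1.39 to 1.75) and a FLASH against CONV ratio of 0.784 (0.684 to 0.897). In general capillary-like cells its level was 345, 782 and 681 CPM, the largest ratio of any tested member there (2.27, 1.66 to 3.12, in CONV). Rpl12 was the member most often lower in FLASH than in CONV, past the fold in 4 classes.

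The stalk itself, which recruits translation factors to the ribosome, was split. Rplp1 and Rplp2 had median ratios of 1.26 and 1.24 in CONV and 1.17 and 1.24 in FLASH against NI. Their CONV intervals lay above 1 in 11 and 12 of 12 classes. Rplp0, the scaffold of the stalk, had a median of 1.08 in CONV and 0.947 in FLASH, and its FLASH interval lay above 1 in 3 classes and below 1 in 4. FLASH against CONV, Rplp0 was below 1 in 11 of 12 classes, with 6 intervals below 1 and none above.

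Of the 5S particle, Rpl5 had a median ratio of 1.14 in both CONV and FLASH against NI, and Rpl11 of 1.07 and 1.06. Intervals lay above 1 in 4 of 12 classes for each gene in CONV and below 1 in none. Rps6, the substrate of S6 kinase, differed little (1.05 and 1.01), with intervals on both sides of 1. Rps27a, made as a fusion with ubiquitin, had medians of 1.16 and 1.09, and Rpl22, which T cell development requires, of 1.21 and 1.12. Rpl26, which binds p53 mRNA after DNA damage, was at 1.203 and 1.206.

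Rpsa, the laminin receptor precursor of the 40S subunit, was at 2256 CPM in NI, 3274 in CONV and 2950 in FLASH in effector and innate-like T cells (CONV ratio 1.45, 1.29 to 1.63). Levels in alveolar fibroblast-like cells were 710, 843 and 612 CPM, the lowest-ranked member there for FLASH against CONV (0.726, 0.610 to 0.861). In AT2-like cells it was at 617, 829 and 722 CPM (0.871, 0.795 to 0.952). FLASH was therefore below CONV in these 3 classes and on either side of NI.

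Rpl10, which joins the 60S subunit last and contacts the P site tRNA, was at 2289 CPM in NI, 3220 in CONV and 3256 in FLASH in AT2-like cells, and above 1 against NI in all 12 classes of both comparisons. Rpl39, of the exit tunnel, was at 3646, 5014 and 4994 CPM in effector and innate-like T cells, with median ratios of 1.29 and 1.254. Rpl17, near the tunnel's mouth, was at 1172, 1754 and 1823 CPM in alveolar fibroblast-like cells. Rpl38, known for its part in Hox mRNA translation, and Rps4x, on the X chromosome, had medians of 1.201 and 1.16 in CONV and 1.18 and 1.19 in FLASH. In CONV all 5 genes were above NI in all 12 classes. In FLASH Rpl10, Rpl17 and Rpl38 were again, while Rpl39 was above in 11 classes and Rps4x in 9, with 1 interval below 1.

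Not all members followed. Rpl41 had a median ratio of 1.01 in CONV and 0.980 in FLASH against NI, and Rps27 of 0.965 and 0.992. For Rps27, 5 intervals in CONV and 4 in FLASH lay below 1, and 3 and 2 lay above 1. Rpl3, which lines the peptidyl transferase centre, was at 1.04 and 0.932, and in T-like cells at 0.870 (0.824 to 0.920) and 0.845 (0.796 to 0.898). Rps3 was at 1.09 and 1.06, with ratios above 1 in 11 classes in CONV and 10 in FLASH. Rps19 had intervals above 1 in 9 classes and below 1 in 2 in CONV, with levels of 4853, 6689 and 6273 CPM in the AT2-like class. The low members therefore include 2 of the most abundant genes of the family.

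In alveolar macrophage-like cells, 7 members were past the fold downward (17.2% of all genes) and 1 upward (12.6%) in FLASH against NI. The only 2 pairs past the fold upward in FLASH against CONV were in effector and innate-like T cells (10.4% of all genes there). Rpl6l was at 833 CPM in NI, 638 in CONV and 907 in FLASH (1.42, 1.02 to 1.98), and Rps27rt at 4181, 1861 and 2382 CPM (1.28, 1.05 to 1.56). Also higher in FLASH than in CONV, but under the fold, were Rps2 in B-like cells (2958, 3230 and 3791 CPM), Rpl13a in effector and innate-like T cells (6332, 6731 and 7877 CPM) and Rpl6l in T-like cells (1126, 1019 and 1218 CPM), at ratios of 1.17, 1.17 and 1.195. Rpl13a is known as the protein that silences inflammatory mRNAs after release from the ribosome.

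Rps27rt, an intronless copy of Rps27 (chr9:114982366-114982739), was the exception to the higher levels. It was past the fold downward in 11 of 12 classes in CONV, the only member but Rpl6l (in 1 class) to be lower, and in all 12 in FLASH. In T-like cells it was at 7717 CPM in NI, 3894 in CONV and 4148 in FLASH, a ratio of 0.505 (0.478 to 0.533) in CONV. In AT2-like cells it was at 1457, 944 and 989 CPM. Its median ratio over classes was 0.517 in CONV and 0.563 in FLASH. The 2 irradiated libraries thus lay close to each other and well below NI.

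Its share of the summed UMIs of Rps27 and Rps27rt ran from 25.4 to 29.5% over the 12 classes in NI, from 15.2 to 19.6% in CONV and from 16.0 to 19.4% in FLASH. The NI range did not overlap that of either irradiated library, while classes as unlike as T-like and club-like cells lay within a few points of each other in 1 library. The longest transcripts of both genes matched at 95.3% of 339 aligned bases, with 16 mismatches. Of the 98-base windows in the last 400 bases of Rps27rt, 89.5% occur unchanged in another gene, most often Rps27. A read from there cannot be told apart by sequence, and how such reads were assigned is not given in the sources used here.

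**Figure D4:**
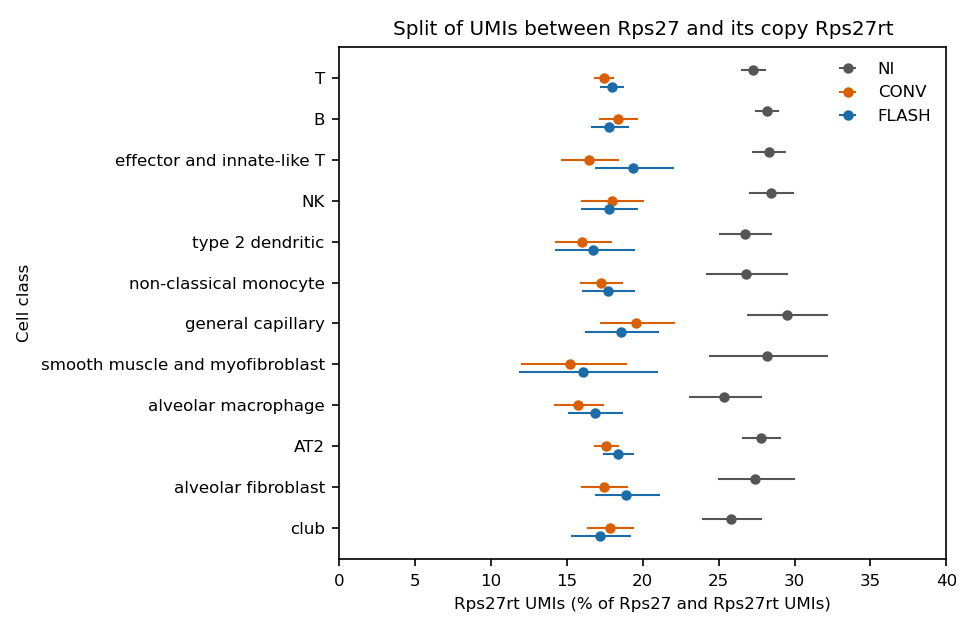
Rps27rt UMIs as a percentage of the UMIs of Rps27 and Rps27rt (x axis) in 12 cell classes (y axis) for NI, CONV and FLASH; bars are exact 95% binomial intervals. NI points lie at 25.4 to 29.5% and points of both irradiated libraries at 15.2 to 19.6%.

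The 16 left-out genes with -ps in their symbol held 58100 UMIs, or 1.59% of the members' sum. These copies were compared over all cells, where the class mix differs between libraries. No share of all genes past the fold was computed on that scale, so the counts have no background. Of the 11 with at least 100 UMIs in NI, 9 were past the fold downward in CONV and 9 in FLASH. The limit was thus set in the library where most of them were highest. The 2 copies not past the fold, Rpl10-ps3 and Rps12-ps3, were at ratios of 0.801 and 0.965 in CONV and 1.15 and 1.01 in FLASH. Rps18-ps3 was at 195 CPM in NI, 56.8 in CONV and 66.2 in FLASH. Read sharing is common in the family: 52 of 83 members with a transcript shared at least 1 such window with another gene, 26 shared over 50%, and Rpl10 and Rpl36a shared all. For the 31 members that shared none, the mean log2 ratio of the share was 0.22 for CONV against NI, 0.14 for FLASH against NI and -0.08 for FLASH against CONV. For the 26 mostly shared members it was 0.16, 0.11 and -0.06.

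To see how evenly members varied between cell classes, each was expressed as a share of the members' own sum, which removes the difference in total. The SD over classes of the log2 share, averaged over the libraries, ran from 0.12 for Rps3 to 0.44 for Rpl12 among 80 members, with a median of 0.24. For 36 members the same class was highest in all 3 libraries, for 36 the same class was lowest, and for 18 both held. Every gene here was kept out of the variable genes used for clustering.

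Rpl12 varied most and was highest in T-like cells, at 0.659% of ribosomal protein UMIs in NI, 0.814% in CONV and 0.784% in FLASH. It was lowest in non-classical monocyte-like cells, at 0.195%, 0.311% and 0.252%. Rplp1 was highest in alveolar macrophage-like cells (2.63%, 2.89% and 2.82%) and lowest in non-classical monocyte-like cells (0.904%, 0.967% and 0.872%). These 2 classes thus stood at opposite ends for this stalk protein among the 12 compared.

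Rpl3 was lowest in alveolar macrophage-like cells in every library, at 0.431%, 0.468% and 0.438%, where other classes ran up to 1.35%. Rplp2 and Rpl41, like Rplp1, had their highest share in alveolar macrophage-like cells in all 3 libraries. Rpl21, of the large subunit, was highest in AT2-like cells (2.52%, 2.76% and 2.71%) and lowest in alveolar macrophage-like cells (0.848%, 0.941% and 0.891%). Rps19 was also highest in AT2-like cells in all 3 libraries, and Rps4x in alveolar fibroblast-like cells.

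Rpl10 and Rpl36al shared a pattern, highest in AT2-like and lowest in T-like cells. Rpl10 was at 2.02%, 2.25% and 2.37% in AT2-like cells against 0.830%, 0.921% and 0.911% in T-like cells. Rpl36al, the intronless copy of Rpl36a, was at 0.482%, 0.534% and 0.507% against 0.1996%, 0.193% and 0.206%. Both rows share sequence with other genes or have close copies, and the part of this in their pattern was not tested. By contrast Rps3, Rps3a1, Rpl19, Rpl8, Rps23 and Rpl35 had the smallest spread over classes.

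**Figure D5:**
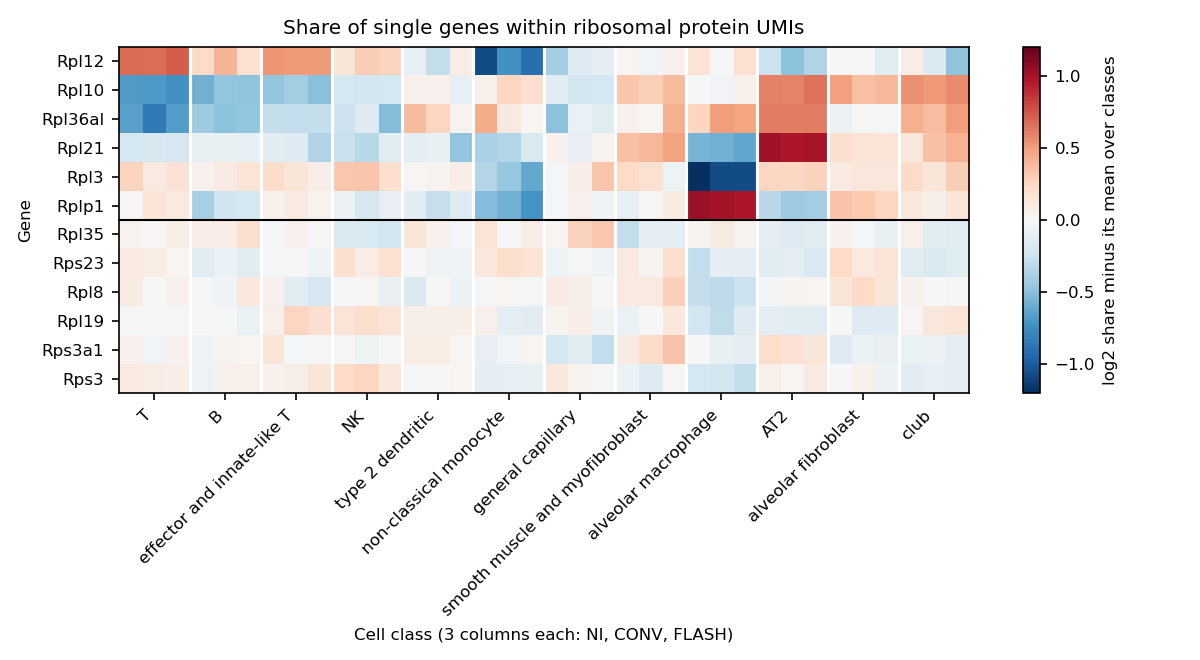
Log2 share of single genes within ribosomal protein UMIs, minus the gene's mean over classes (colour), for the 6 most and the 6 least variable members (rows) in 12 cell classes with 3 columns each for NI, CONV and FLASH. Columns of 1 class have like colours in the upper rows, such as Rplp1 in alveolar macrophage-like and Rpl12 in T-like cells.

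The wider translation apparatus was followed with the same fold. The 19 companion TOP genes, whose mRNAs carry the same start motif but whose symbols fall outside the rule, had 41 of 192 gene and class pairs higher and 18 lower in CONV against NI (median log2 0.11), where 17.5% of all pairs were higher and 20.1% lower. In FLASH 30 of 184 were higher and 25 lower (0.03), against 15.3% and 21.4% of all pairs. Their summed share was 1.02% in NI, 1.53% in CONV and 1.47% in FLASH in general capillary-like cells, and 1.58%, 1.41% and 1.33% in alveolar macrophage-like cells. In the latter, 8 of 17 companion TOP genes were lower in CONV (17.7% of all genes there) and none higher (13.5%).

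Eef1a1, the factor that brings tRNA to the ribosome, was at 2332 CPM in NI, 3688 in CONV and 3477 in FLASH in general capillary-like cells, and at 3411, 3175 and 2778 CPM in alveolar macrophage-like cells. Tpt1, a TOP mRNA used as a readout of mTOR, was at 3504, 4941 and 4873 CPM in T-like cells. Fau, whose product is cut to give Rps30, reached 1424, 1977 and 1861 CPM in cells like AT2. In each class named they lay on the same side of NI as the member sum. That sum did not differ from NI beyond counting error in alveolar macrophage-like cells of CONV. The companion list as a whole did not follow the member sum in every class. In FLASH its median was lower than NI in T-like, club-like and effector and innate-like T cells, whose member share was higher.

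Other lists did not share the members' higher values. Eef elongation factors and some Eif genes were counted with the companion TOP genes. The other Eif genes listed, with the termination factors Etf1 and Gspt1, had 7 of 104 pairs higher and 22 lower in CONV (median -0.08). In FLASH they had 2 of 88 higher and 19 lower (-0.12). Their lower counts are close to the share of all pairs that were lower, 20.1% in CONV and 21.4% in FLASH, and their higher counts are under the 17.5% and 15.3% of all pairs. Ribosome biogenesis factors had 3 of 27 higher and 6 lower in CONV and 2 of 22 higher and 6 lower in FLASH. Genes of translation control had 1 of 18 higher and 6 lower, and 2 of 17 higher and 9 lower. Few genes of the last 2 lists reached the count minimum. Proteins of the mitochondrial ribosome had 6 of 83 higher and 15 lower in CONV (-0.08) and 6 of 68 higher and 15 lower in FLASH (-0.10), so they lay near or below the background of all genes.

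In the list of the 5S particle and p53, 7 of 8 pairs were higher in CONV and 6 of 6 in FLASH. Of all pairs, 17.5% and 15.3% were higher. The higher pairs were all the same gene, Cdkn1a, the p53 target that arrests the cell cycle. A class entered with at least 100 UMIs in the pair of libraries, which Cdkn1a could reach mainly through the irradiated library. The counts therefore favour classes where it is high and are no measure of how common the difference is. In AT2-like cells Cdkn1a was at 88.3 CPM in NI, 475 in CONV and 524 in FLASH. Of the paralogs that the rule left out, Rps27l, a p53 target, had 294, 693 and 673 CPM in the AT2-like class and 345, 959 and 1131 CPM in general capillary-like cells. In T-like cells Rps27l was at 183, 216 and 200 CPM, with intervals of both ratios that include 1. Rpl22l1, the paralog of Rpl22, had 694, 735 and 634 CPM in the AT2-like class and showed no common direction. In AT2-like and general capillary-like cells both irradiated libraries thus had a higher ribosomal protein share and higher Rps27l. Summed, the paralogs were also higher in alveolar macrophage-like cells, whose member share was not (0.139% of UMIs in NI, 0.172% in CONV and 0.191% in FLASH). In effector and innate-like T cells, whose member share was higher, they were at 0.192%, 0.175% and 0.192%. A link between the member share and Rps27l was not tested.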

How the data were processed

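Per the submitters' processing notes, the authors made the deposited matrices with Cell Ranger 2.0 on mm10. The values are raw UMI counts per gene and barcode, deposited without normalization. Per the labels' protocols, dissociated lungs were passed through 100 and 40 µm filters, red cells were lysed, and 10x Genomics 3′ version 2 libraries were read with 26 and 98 cycles.

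Barcodes needed at least 200 genes and at most 10% mitochondrial UMIs (50 and 154 were removed). The top scrublet scores in each library, at 0.8% per 1000 barcodes, were taken out as doublets (121). This left 6346 of 6662 barcodes. Counts were scaled to 10000 per cell and log transformed. The 2000 most variable genes without the members, 30 components and 15 neighbours entered Leiden clustering at resolution 1 without integration. A cluster took a name from at least 3 markers, each found in 10% of the cluster and at 2 times its level in the other cells, and at least 1 marker among its 10 leading genes. The last limit was set after seeing the data and left 3 clusters unnamed.

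UMIs were summed per class and library. Shares have Clopper-Pearson intervals, log2 ratios of shares a delta-method error, and CPM ratios exact conditional binomial intervals. Functions were tested on simulated data. Gene positions and the transcripts used for shared windows and alignment come from GENCODE M21. Start and promoter windows come from RefSeq GRCm38.p6.

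Members and lists were chosen with earlier results of these data known. Named were the 5 highest and 5 lowest members, the 6 most variable, each comparison's top and bottom member (going by whichever interval bound is nearest to 1) in the 6 largest classes, members with a known role, and up to 4 genes per list with the most UMIs. Classes under 30 cells in a library were left out of the comparisons. Clustering used scanpy 1.11.5 with igraph 0.11.9 in Python 3.11.15, intervals scipy 1.17.1, and tables pandas 2.3.3 and numpy 2.4.6. Results for some single genes are not reported here.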

Additional observations from a re-analysis of the deposited data

Results flagged for a closer look

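Of the 12 cell classes, the alveolar macrophage-like one alone had a lower ribosomal protein share in FLASH than in NI, with a log2 ratio of -0.1077 (13.6% against 14.6%), while the other 11 classes were higher. The class was picked out by this opposite direction, and the difference between classes was not tested. Interstitial macrophage-like cells, outside the 12 classes with 29 NI cells, were also lower, at 16.2% in NI and 15.1% in both irradiated libraries. In the alveolar macrophage-like class, median depth was 3356 UMIs per cell in NI and 1955 in FLASH, and its value among cells of 1000 to 4000 UMIs was -0.12.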

How the results depend on the processing

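The libraries carry no replicate numbers beyond 1 per group. No paired analysis was possible because each group is 1 library. Over all cells the shares in NI, CONV and FLASH were 21.7, 18.9 and 18.6% without mitochondrially encoded genes, 22.5, 20.4 and 20.2% as a mean over cells, 21.6, 18.9 and 18.6% at a mitochondrial limit of 5%, 20.8, 18.1 and 17.8% at 20%, and 24.3, 20.6 and 19.5% in cells of 1000 to 4000 UMIs. With doublets kept they were 18.2 and 17.9% in CONV and FLASH, and NI was 19.1% without clusters over 75% of 1 library.

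The mean log2 ratios of the share for CONV against NI, FLASH against NI and FLASH against CONV were 0.197, 0.118 and -0.0796 as a mean over cells, 0.211, 0.158 and -0.0531 at a mitochondrial limit of 5%, 0.223, 0.176 and -0.0474 with doublets kept, and 0.243, 0.194 and -0.0487 in cells of 1000 to 4000 UMIs. They were 0.204, 0.160 and -0.0378 relative to the median gene, and 0.220, 0.144 and -0.0757 for members with no shared window. CONV and FLASH against NI were 0.187 and 0.126 without mitochondrially encoded genes, 0.203 and 0.142 without the effector and innate-like T class, and 0.163 and 0.107 for mostly shared members. FLASH against NI and against CONV were 0.145 and -0.0521 at resolution 0.6. Without the 20 most abundant other genes of a class, CONV against NI was 0.170 and FLASH against CONV -0.0323. All kept the sign of the reported means.

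At a fold of 1.5, 62 member and class pairs were higher in CONV against NI, 32 higher and 10 lower in FLASH against NI, and 0 higher and 1 lower in FLASH against CONV. Centred on the members, the counts higher and lower were 52 and 28 in CONV, 59 and 43 in FLASH, and 5 and 13 for FLASH against CONV, since centring takes out the common part. In cells of 1000 to 4000 UMIs, 1 was higher and 17 lower in FLASH against CONV. Without the effector and innate-like T class, 0 were higher in FLASH against CONV. The shares of all genes past the fold are not given for these settings, so these counts have no background.

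Single classes turned direction in 15 cases, and the cause was not tested. As a mean over cells, club-like cells were at -0.174 in CONV and -0.348 in FLASH against NI. Effector and innate-like T cells were at -0.0379 in CONV against NI and 0.0599 in FLASH against CONV at a mitochondrial limit of 5%. FLASH against CONV turned to 0.000304 in T-like and 0.0284 in type 2 dendritic-like cells with doublets kept. It was 0.0180 in effector and innate-like T cells with members among the variable genes. At resolution 0.6 it was 0.0477 in effector and innate-like T and 0.00833 in non-classical monocyte-like cells. It was 0.00161 in B-like cells of 1000 to 4000 UMIs, and 0.112 (without 20 genes) and 0.0671 (median gene) in club-like cells. With mostly shared members, FLASH against NI was -0.0113 in NK-like and -0.00888 in effector and innate-like T cells, and FLASH against CONV 0.00427 in B-like cells. Depth limits the rarest members and classes: FLASH has the fewest UMIs per cell, and a count of 0 allows 0.578 CPM there. The alternatives on depth, the effector class, the most abundant genes, the median gene and shared windows were chosen after seeing the data.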

Other observations

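Classes with under 30 cells in a library were kept out of the comparisons, and the ribosomal protein shares of some of them are given as values. Alveolar type 1-like cells, the thin cells of gas exchange, had the lowest share of these, at 4.73% in NI (11 cells), 6.70% in CONV and 6.25% in FLASH. Ciliated-like cells were at 7.71% (20 NI cells), 7.83% and 7.67%. Aerocyte-like cells, another capillary endothelial class, were at 8.71% (17 NI cells), 8.74% and 8.58%, without the difference of the general capillary-like class. Adventitial fibroblast-like cells were at 11.8% (24 NI cells), 13.7% and 13.5%, and mesothelium-like cells at 10.8% (15 NI cells), 13.8% and 12.4%. Classical monocyte-like cells were at 20.04% (27 NI cells), 21.6% and 22.2%, interstitial macrophage-like cells at 16.2% (29 NI cells), 15.1% and 15.1%, and neutrophil-like cells at 18.1% (14 NI cells), 24.7% and 25.8%.

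In AT2-like cells the summed UMIs of Rps27 and Rps27rt were at 5240 CPM in NI, 5365 in CONV and 5383 in FLASH, ratios to NI of 1.02 and 1.03. Over the 12 classes the ratio of the pair to NI ran from 0.727 in NK-like to 1.30 in general capillary-like cells in CONV, and from 0.730 in B-like to 1.24 in general capillary-like cells in FLASH. In T-like cells it was 0.789 and 0.816, so the pair was also lower there.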
